A study of Mus musculus with 29 samples.

Results

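Myod1, Myf5, Myf6 and Myog, the 4 myogenic bHLH factor genes of the mouse, were placed on a map of H2AK119ub (H2Aub), the mono-ubiquitin mark that Polycomb repressive complex 1 lays on histone H2A. The genes were taken by name as a family, but with earlier results of these data known. They are 4 of 20558 protein-coding genes on the mapped chromosomes. For each, the H2Aub types over the gene body and over 100 kb on each side were read from the authors' deposited segmentation, at RefSeq positions of the mm10 build. The 4 genes stand at 3 loci, because Myf5 and Myf6 are neighbours 5.92 kb apart and share most of their windows. The 4 genes lay in 3 different types: Myod1 in type 4, Myf5 and Myf6 in type 5, and Myog in type 3.

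The 4 proteins are basic helix-loop-helix transcription factors that pair with E proteins and bind the short DNA motif called the E-box. Myod1 and Myf5 commit cells of the somite to the skeletal muscle fate, Myog drives committed myoblasts to fuse and differentiate, and Myf6 (also called MRF4) acts in both early commitment and mature fibres. Muscle is formed long after the stages profiled here, in the body of the later embryo. H2Aub, with the H3K27me3 mark of Polycomb repressive complex 2, is known from other cells for marking silent developmental regulator genes.

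The series comprised 29 libraries in 16 groups, made by CUT&RUN, where an antibody guides a nuclease that cuts free the DNA carrying a histone mark. H2Aub was measured in germinal vesicle (GV) oocytes, 4-cell embryos and morulae with Eed, a subunit of Polycomb repressive complex 2, deleted maternally, labelled Gdf9-Eed (fl/fl) (2 libraries each, B6/129 mixed mothers, PWK fathers for the embryos). Gdf9 is an oocyte gene. The 4-cell PR-DUB overexpression (OE) and control (CTR) embryos, from B6/DBA x PWK crosses, gave 1 H2Aub and 2 H3K27me3 libraries per group, PR-DUB being a deubiquitinase of H2A. The WT H2Aub libraries came from GV oocytes labelled Eed (fl/fl) on the B6/129 mixed background (2), metaphase II oocytes of B6/DBA females (2) and from 6 embryonic stages, namely the zygote (2), the embryo of 2 cells (3) and of 4 cells (2), the morula (2), the blastocyst's inner cell mass (1) and the epiblast at E6.5 (2). A further H3K27me3 library was made from B6/DBA GV oocytes. The embryos had PWK fathers. The WT mothers of the 4-cell and morula embryos were Eed (fl/fl) on the B6/129 mixed background, those of the 2-cell embryos were either Eed (fl/fl) or B6/DBA, and those of the other embryos were B6/DBA. Libraries held 1 to 300 oocytes or embryos, with no number given for 3 of them.

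The values analysed here were 1 segmentation of chromosomes 1 to 19 into 31563 segments, each labelled with an H2Aub type from 1 to 5. The types are category labels that carry no key, so a higher number cannot be read as more H2Aub. Which libraries the segmentation was built from is not given in the sources used here, and it holds no value per library. The stages, the Eed groups and the PR-DUB groups could therefore not be compared at these genes, read depth is unknown, and no value below has a replicate error or a test. All segment borders fell on multiples of 5000 bases, so a gene of a few kb rests on 1 or 2 steps of the map.

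Myod1, a commitment factor, lay wholly in type 4, inside a long type 4 segment with type 3 on either side. The gene (chr7:46376474-46379092, 2.62 kb) was 100% type 4, and so was 93.0% of the 202.6 kb window made of the gene and its flanks. The other 6.95% of the window was type 3 and lay at its higher end, where type 4 ended 85.9 kb beyond the gene. The type 4 segment ran from 46095001 to 46465000, reached 281.5 kb below the gene, and bordered a type 3 segment of 15 kb on the lower side and one of 185 kb on the higher side.

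At 370 kb, the segment with Myod1 was number 77 by length among 4751 type 4 segments, whose median was 40 kb. It held 6 protein-coding genes wholly: Myod1, the otogelin gene Otog and the Usher syndrome gene Ush1c, both of the inner ear, the voltage-gated potassium channel gene Kcnc1, and Abcc8 and Kcnj11, which encode the subunits of the ATP-sensitive potassium channel of the beta cell. Kcnc1 began 17.1 kb above Myod1. Sergef, whose body crosses the border to the next segment, was 89.1% type 3 and 10.9% type 4. Of the 2888 protein-coding genes whose main type, the type covering most of the body, was type 4, 169 (5.85%) had at least as much of their window in type 4 as Myod1 did, and the median was 53.8%.

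Myf5, a commitment factor, and Myf6 lay wholly in type 5, far from any border between types. Myf5 (chr10:107482908-107486927, 4.02 kb) and Myf6 (chr10:107492848-107494723, 1.88 kb) were each 100% type 5, and so were both windows, of 204.0 kb and 201.9 kb. These windows overlapped by 194.1 kb, so they are nearly the same measurement. A single type 5 segment of 1830 kb (106265001 to 108095000) held both. Type 5 began 1218 kb below Myf5 and ended 600.3 kb above Myf6, with type 1 segments of 50 kb and 5 kb at its ends.

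That segment was number 39 by length among 3775 type 5 segments, of which 92 reached 1 Mb and whose median was 45 kb. It held 7 protein-coding genes, and each of these had a window 100% type 5. They were Myf5, Myf6, the synaptic scaffold genes Ppfia2 and Lin7a, the inner ear genes Ptprq and Otogl, and Acss3, an acyl-CoA synthetase gene. Ptprq began 19.6 kb above Myf6, and Lin7a ended 57.8 kb below Myf5. Over all protein-coding genes 586 (2.85%) had a window wholly in type 5, and these made up 29.9% of the 1960 genes whose main type was type 5. Of 7257 pairs of neighbouring protein-coding genes less than 10 kb apart, 4958 (68.3%) had 1 main type in common, as Myf5 and Myf6 did.

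Myog, the differentiation factor, lay in type 3 but in a stretch of mixed types. The gene (chr1:134290004-134292548, 2.54 kb) was 100% type 3, while its 202.5 kb window was 48.2% type 3, 27.2% type 4, 14.8% type 1 and 9.87% type 2. The window touched 6 segments, against 2 for Myod1 and 1 each for Myf5 and Myf6. From the lower end they were type 4 (80 kb), type 3 (5 kb), type 2 (20 kb), type 3 (75 kb, with Myog), type 1 (30 kb) and type 3 (50 kb). Type 5, the type of Myf5 and Myf6, was at 0% of the window and also within 1000 kb of Myog.

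The segment with Myog ran from 134270001 to 134345000 and was number 1786 by length among 9092 type 3 segments, whose median was 30 kb. Myog lay 20.0 kb from its lower border and 52.5 kb from its higher one, and Ppfia4, a gene of the same scaffold family as Ppfia2, was the only other gene wholly inside. Below Myog, the myosin-binding protein gene Mybph, itself a muscle gene, the adenosine receptor gene Adora1 and the chitinase-like gene Chil1 were each 100% type 4. Above it, Tmem183a was 100% type 1 and Mgat4f 100% type 3. Of 6947 genes whose main type was type 3, 69.3% had at least as much type 3 in their window as Myog, and the median was 61.0%.

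**Figure D1:**
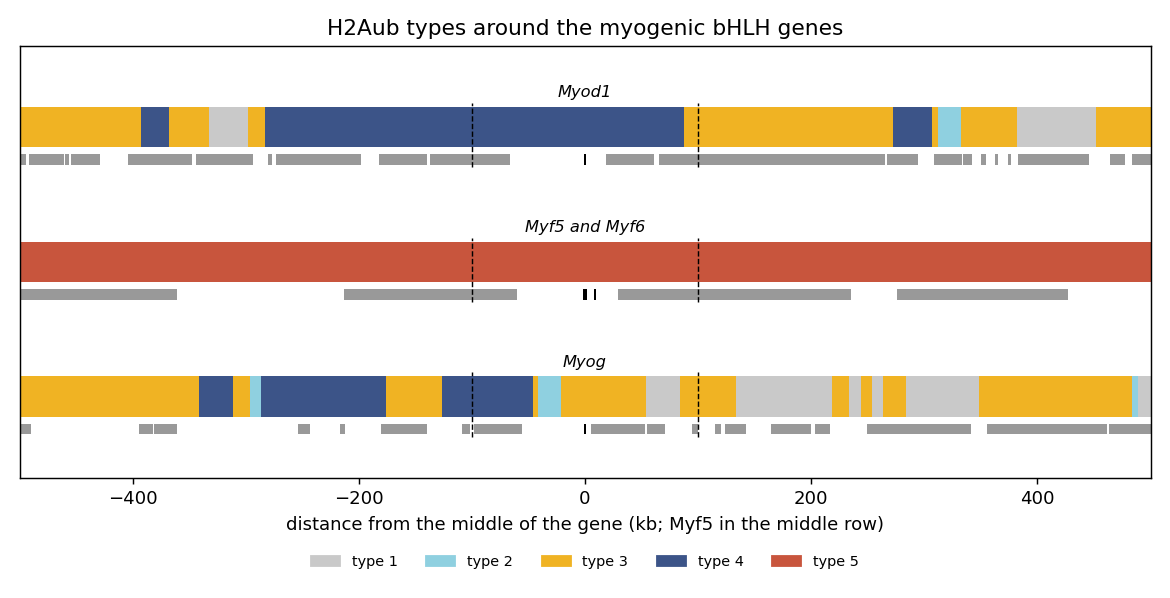
H2Aub types along 500 kb on each side of the middle of Myod1, Myf5 and Myog (distance in kb), with colours for the 5 types, bars below for protein-coding genes (black for the myogenic genes, grey for others) and dashed lines at 100 kb. Type 4 spans 370 kb around Myod1, type 5 fills the whole row of Myf5 and Myf6, and Myog sits in a 75 kb type 3 segment among segments of types 1 to 4.

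Read against all protein-coding genes, 2 of the 4 genes had type 5 as the main type, where 9.53% of all 20558 genes did. For type 4 it was 1 of 4, with 14.0% of all genes, and for type 3 it was 1 of 4, with 33.8% of all genes. None of the 4 had type 1, the main type of 37.2% of all genes, or type 2, that of 5.44%. All 4 bodies lay wholly in 1 type, as did 68.7% of all genes, and the 4 genes are short, at 1.88 to 4.02 kb against a median of 17.6 kb over all genes. With 4 genes at 3 loci these counts describe the genes and carry no test.

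**Figure D2:**
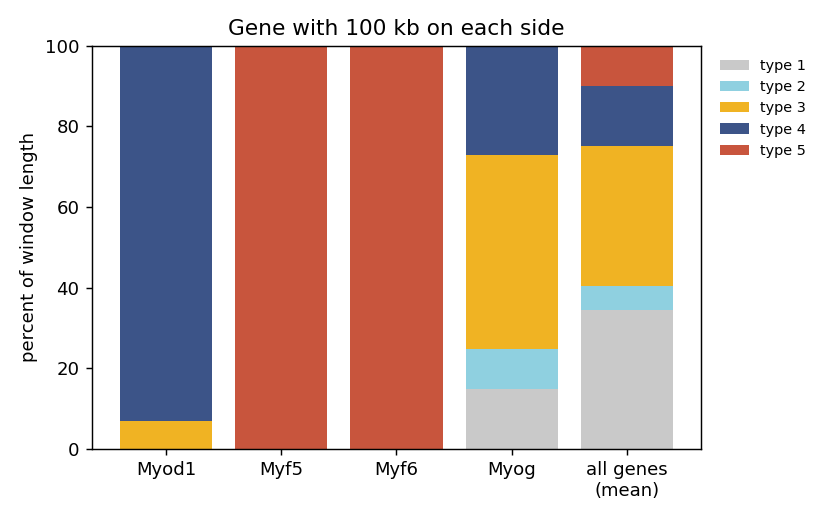
Percent of the window (gene with 100 kb on each side) in each H2Aub type for the 4 genes, and the mean over 20558 protein-coding genes at the right. Myf5 and Myf6 are 100% type 5, Myod1 93.0% type 4 and Myog mixed, while the mean window is 34.5% type 1, 5.87% type 2, 34.9% type 3, 14.8% type 4 and otherwise type 5.

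The windows of the 3 loci had little in common at matched distances. Over 41 steps of 5 kb centred on the gene, Myf5 and Myf6 had the same type at 41. Myod1 and Myog had the same type at 14 of 41 (34.1%), where type 4 below Myog or type 3 above it met the same type at Myod1. Neither shared a type with Myf5 or Myf6 at any of the 41 steps, read in either direction.

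**Figure D3:**
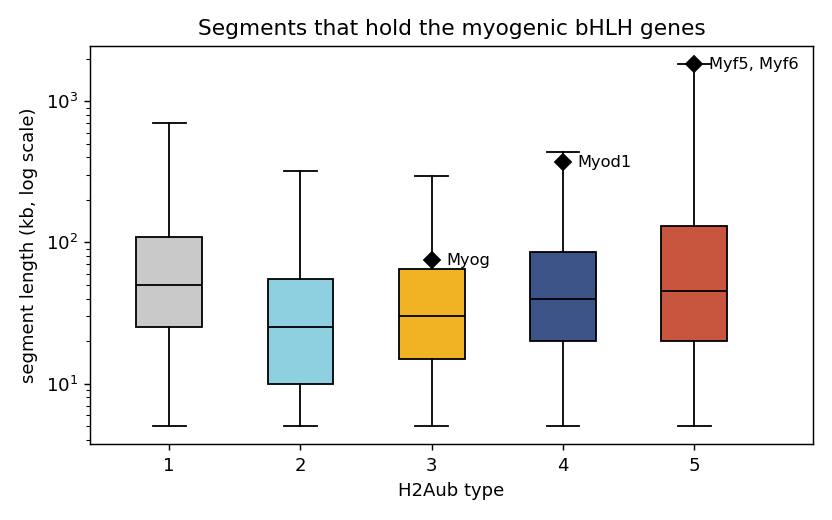
Length of H2Aub segments by type (kb, log scale), as boxes from the 25th to the 75th percentile with the median and whiskers at percentiles 1 and 99, and diamonds for the segments that hold the myogenic genes. The 370 kb segment of Myod1 and the 1830 kb segment of Myf5 and Myf6 lie near the upper whiskers, at 435 and 1834 kb, and the 75 kb segment of Myog just above its box, which ends at 65 kb.

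The share of each gene's own type changed in different ways as the flanks were widened. Within 20 kb on each side all 4 were 100% their own type. At Myod1, type 4 took 100% at 50 kb, 67.4% at 250 kb, 42.9% at 500 kb and 25.7% at 1000 kb, and type 3 replaced it as the leading type from 500 kb (44.6%). At Myf5, type 5 stayed at 100% up to 500 kb and took 82.2% at 1000 kb, and at Myf6 81.8%. At Myog, type 3 took 75.6% at 50 kb, 40.3% at 250 kb, 53.4% at 500 kb and 48.9% at 1000 kb.

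**Figure D4:**
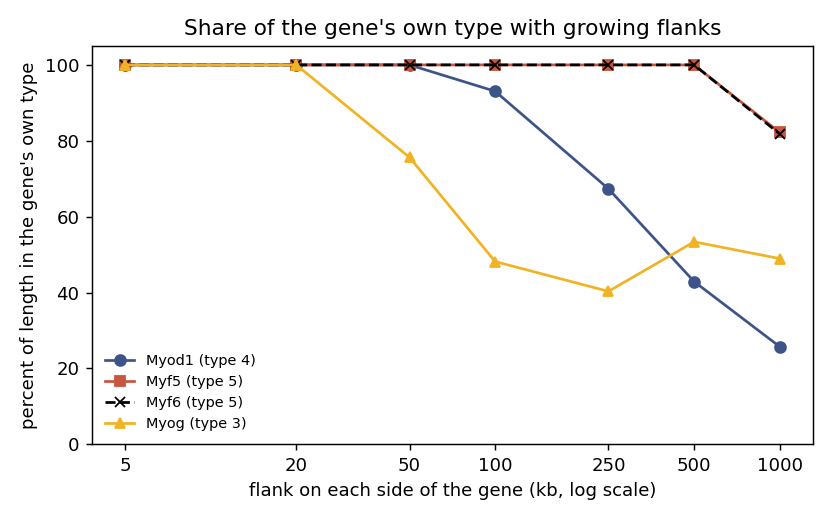
Percent of length in the gene's own type (type 4 for Myod1, 5 for Myf5 and Myf6, 3 for Myog) against the flank taken on each side (kb, log scale). The type 5 lines stay at 100% to 500 kb, the type 4 line drops from 50 kb on to 25.7%, and the type 3 line is lowest at 250 kb, with 40.3%.

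The loci also differed in how many genes surround them. Within 1 Mb there were 66 protein-coding genes around Myod1, counting the gene itself, 10 around Myf5 and around Myf6, and 38 around Myog. The median was 31 over all genes, 31 for type 4 genes, 28 for type 5 genes and 39 for type 3 genes. As few genes as at Myf5 were found around 9.99% of all genes and 23.7% of type 5 genes, and as few as at Myod1 around 84.9% of all genes. Type 5 took 21.4% of chromosome 10, which carries Myf5 and Myf6, type 4 took 19.2% of chromosome 7, which carries Myod1, and type 3 took 14.9% of chromosome 1, which carries Myog.

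Promoter sequences from RefSeq (GRCm38.p6, which is mm10) matched 2 of the 4 genes, Myf5 and Myog. They are shown as the start sites that lie in type 5 and type 3, each 250 bases before and 50 after the start, 5′ to 3′ along the gene. Capitals mark the E-box CANNTG, the letters TATAAA, and CTANNNNTA, the core of the site of the Mef2 muscle factors with free middle letters, each searched on both strands.
Myf5 (chr10:107486085-107486384, minus strand): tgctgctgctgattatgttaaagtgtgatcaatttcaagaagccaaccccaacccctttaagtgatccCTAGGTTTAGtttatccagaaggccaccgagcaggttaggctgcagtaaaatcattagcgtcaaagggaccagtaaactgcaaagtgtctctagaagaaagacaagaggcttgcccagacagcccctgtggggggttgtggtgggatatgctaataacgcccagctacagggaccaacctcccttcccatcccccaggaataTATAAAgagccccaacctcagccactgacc
Myog (chr1:134289754-134290053, plus strand): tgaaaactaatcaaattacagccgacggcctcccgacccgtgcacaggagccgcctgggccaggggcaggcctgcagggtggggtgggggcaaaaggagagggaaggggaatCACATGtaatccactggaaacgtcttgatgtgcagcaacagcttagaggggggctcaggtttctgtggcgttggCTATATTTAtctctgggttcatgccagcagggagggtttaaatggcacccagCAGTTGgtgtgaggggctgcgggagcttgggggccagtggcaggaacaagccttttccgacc

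The Myog promoter held 2 E-boxes, 138 and 12 bases before the start, and 1 match to CTANNNNTA, 64 bases before it. It held no TATAAA. The Myf5 promoter held no E-box, 1 TATAAA, at base 21 after the RefSeq start, and 2 overlapping matches to CTANNNNTA, 1 on each strand. This Myf5 promoter lies inside the gene body used above, which reaches 107486927 on the minus strand. The sequence at that end of the body was not examined. Over 31223 distinct promoters of the same length, 72.1% held an E-box, 13.6% TATAAA and 20.8% CTANNNNTA. In promoters in type 5, TATAAA was found in 29.0% and CTANNNNTA in 33.1%, and in promoters in type 3 in 9.99% and 17.4%. These matches describe letters and not binding.

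CpG dinucleotides, which are dense in many promoters of developmental regulators, differed between the promoters shown. The Myf5 promoter held 3 CpG and was 49.7% G and C, against medians of 2 CpG and 42.3% over the 2742 promoters in type 5. The Myog promoter held 9 CpG and was 58.3% G and C, against medians of 10 CpG and 56.0% over the 12416 promoters in type 3. The median over all promoters was 7 CpG and 53.0%. In CpG number each was within 1 of the median of its own type, while the G and C share of the Myf5 promoter was nearer to the median over all promoters than to that of type 5.

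Genes that act upstream of the myogenic factors lay mostly in type 4, the type of Myod1. Of 13 such regulators, type 4 was the main type of 8, type 3 of 3, and types 2 and 5 of 1 each, and type 1 held none. Over all genes type 4 was the main type of 14.0%, type 3 of 33.8%, type 2 of 5.44%, type 5 of 9.53% and type 1 of 37.2%, so the counts in types 2, 3 and 5 are near those shares. In type 4 were Dmrt2 and Pax7, each with 100% of the body, Eya2 (76.4%) and Pax3 (73.9%), Pax3 and Pax7 being the paired-box factors of muscle progenitors. In type 3 were the homeobox genes Six4, Lbx1, which acts in migrating limb muscle precursors, and Meox1. Eya1, a transcriptional cofactor, was 53.5% type 2. Meox2, a homeobox gene of somite and limb muscle, lay in type 5 with 100% of its window, like Myf5 and Myf6, in a segment of 445 kb.

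The partners of the myogenic proteins were spread over 4 types. Of 7 partner genes, 3 lay in type 3 (the E protein gene Tcf3, with Mef2b and Mef2d), 2 in type 1 (the E protein gene Tcf12 and Mef2a), 1 in type 4 (the E protein gene Tcf4) and 1 in type 5 (Mef2c). The Mef2 genes encode MADS-box factors that work with the myogenic factors on muscle genes. Mef2c lay in a type 5 segment of 1480 kb, and its window was 89.0% type 5. Among the 100 other genes listed, it was the 1 gene whose middle stood in a segment of at least 1 Mb, as Myf5 and Myf6 do. The share of all protein-coding genes in segments of that length is not given here, so this count has no comparison. Of 8 inhibitor genes, 6 lay in type 3, among them Id1, Id2, Id3 and Id4, which sequester E proteins, and 2 in type 4, the bHLH repressor genes Twist1 and Twist2. Type 3 thus held 42.9% of the partners and 75% of the inhibitors, against 33.8% of all genes, and the partners' share is near that of all genes. Type 1 held 28.6% of the partners, against 37.2% of all genes, and type 5 held 14.3%, against 9.53%. Type 4 held 14.3% of the partners, near the 14.0% of all genes, and 25% of the inhibitors.

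Genes of muscle differentiation, which the myogenic factors switch on, lay mainly in type 3, the type of Myog. Of 45 such genes, type 3 held 27 (60.0%, against 33.8% of all genes) and type 4 held 14 (31.1%, against 14.0%). Type 2 held 3 (6.67%, against 5.44%), type 5 held 1 (2.22%, against 9.53%) and type 1 held none, against 37.2%. The type 2 count is near the share of all genes. The skeletal actin gene Acta1, the cardiac actin gene Actc1 and the actinin gene Actn3 were each 100% type 3, and Actn2 was 99.2%. The 3 in type 2 were the fast myosin gene Myh1, the synapse kinase gene Musk and Mstn, the gene of the muscle growth inhibitor myostatin. The type 5 gene was Myl1, a myosin light chain gene, with 54.7% of its body. These 4 were named after their values were seen. Median window shares of the 45 genes were 46.6% type 3 and 17.9% type 4, against medians of 31.6% and 0% over all protein-coding genes.

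Against other bHLH factor genes, type 5 was the main type of 2 of the 4 myogenic genes and of 2 of 30 neurogenic and mesodermal bHLH genes (6.67%). Of the 30, type 3 held 17 (56.7%, against 33.8% of all genes) and type 4 held 10 (33.3%, against 14.0%). Type 2 held 1 (3.33%, against 5.44%) and type 1 held none, against 37.2% of all genes. The neurogenic genes in type 5 were Neurod1, with 64.9% of its window in type 5, and Neurod4, with 97.5%, in a segment of 375 kb. Wholly type 5 windows were found at Myf5 and Myf6, which are 1 locus, and at 0 of the 30. Over all genes 9.53% had type 5 as the main type and 2.85% a window wholly in type 5. The type 5 counts of the 30 are near those shares, unlike their counts in types 1, 3 and 4. Among those in type 4 were Atoh1, Neurod2, Neurod6 and Nhlh2, and in type 3 were Atoh7, Bhlhe22, Neurog1 and Neurog2, all factors of neuron formation.

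Among the 13 mesodermal bHLH genes outside the myogenic family, type 3 held 7 (53.8%, against 33.8% of all genes) and type 4 held 5 (38.5%, against 14.0%). Type 2 held 1 (7.69%, against 5.44%), which is near the share of all genes. Msc, Twist1 and Twist2 are also counted among the inhibitors, so those lists are not separate. In type 3 were Lyl1 of blood, Mesp1 and Mesp2 of early mesoderm and somites, and Msc, a repressor in muscle precursors. In type 4 were Hand1 and Hand2 of the heart, Tal1 of blood, Twist1 and Twist2, and in type 2 was Scx of tendon. Hand1 had a window 100% type 4, and Twist2 94.7%, next to 93.0% at Myod1. Over the 30 bHLH genes the share of the window in the gene's own type ran between 4.93% and 100%, with a median of 50.5%, and Myog, at 48.2%, was near that median. The segments at their middles had a median length of 87.5 kb, and 2 of 30 were at least as long as the 370 kb segment of Myod1, the longest being 480 kb. The share of all protein-coding genes in segments of at least that length is not given here.

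**Figure D5:**
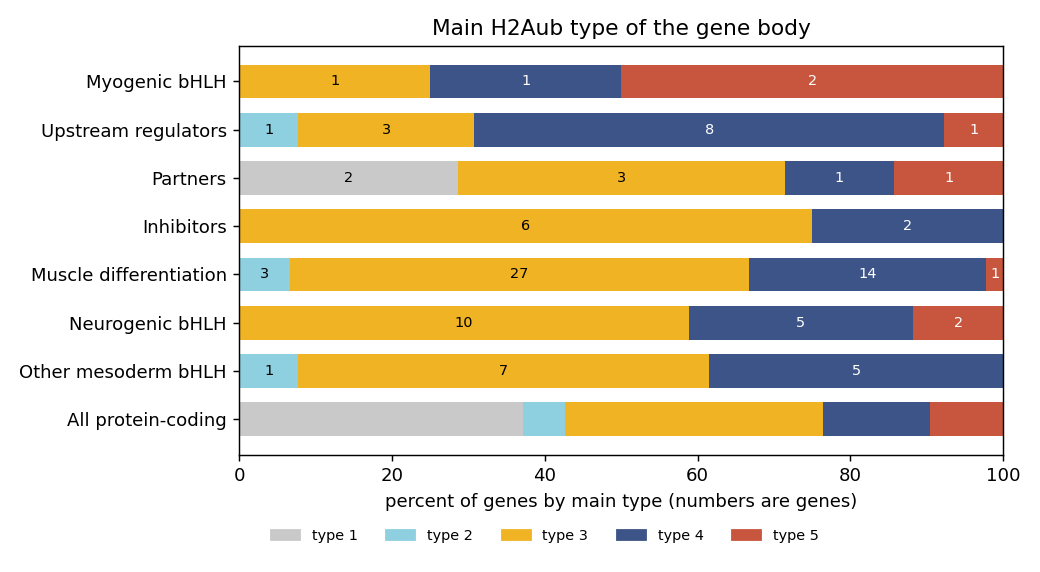
Percent of genes by main H2Aub type for the 4 myogenic genes, 6 lists of related genes and all 20558 protein-coding genes at the bottom, with gene numbers in the bars. The myogenic genes are 1 type 3, 1 type 4 and 2 type 5, upstream regulators mostly type 4 (8 of 13), muscle differentiation genes mostly type 3 (27 of 45), and neurogenic and other mesoderm bHLH genes mostly type 3.

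Genes with the most similar pattern were sought by counting, over the same 41 steps and in either direction, the steps with the same type, in 20445 protein-coding genes farther than 1 Mb from the 4. For Myod1, 14 genes matched at all 41 steps, the first by symbol being Aox3, Bpifb2 and Cacng2, where the median gene matched at 3. For Myf5 and Myf6, 669 genes matched at all 41, the first by symbol being 1700003H04Rik, 1700006A11Rik and 2310034C09Rik, where the median gene matched at 0. For Myog no gene matched at all steps. Uck2 came closest with 36 of 41 (87.8%), followed by Cdc42ep4 and H2bu2 with 35, where the median gene matched at 13.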

How the data were processed

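The files give 1 segmentation of the genome, for which the authors deposited a category label from 1 to 5 per segment, with coordinates on mm10. The file's own name gives it as ChromHMM types of H2Aub. ChromHMM is a program that learns chromatin states with a hidden Markov model. For its version, inputs and settings, the sources used here give nothing. The libraries were handled with deepTools 3.0.2, Picard 2.8.0, Bowtie2 2.3.4.3 and Trim Galore 0.4.5, per the submitters' processing notes.

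The labels were laid on steps of 5000 bases. In 261 of 492539 steps 2 segments overlapped and the shorter was used; none of these lay in the windows of the 4 genes. Gene positions came from a RefSeq table of GRCm38.p6 with 49997 genes, without genes on separate scaffolds, which left 46709, of which 20558 are protein-coding. All 104 names in the lists matched. Shares were computed with Python 3.11.15, numpy 2.4.6 and pandas 2.3.3, and tested on simulated data (200 of 200 intervals recovered).

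The members and lists were chosen with earlier results of these data known. Genes named are the 4, those in their windows and segments, up to 8 per list (those outside the list's leading type where 8 or fewer, and the first 4 by symbol in it), and the 3 most similar per gene. Some genes that this rule takes are left unreported. No test was made, since there are no replicates.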

Additional observations from a re-analysis of the deposited data

How the results depend on the processing

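No paired analysis was possible because the segmentation holds no value per library. The gene body types of all 4 myogenic genes were unchanged by taking the middle step of the gene, by adding 5 kb on each side and by using the longer segment in overlaps. These settings could not have changed them. Each body lay wholly in 1 type, the nearest border was 20.0 kb away (at Myog), and no overlap of segments lay in the windows. Window values moved only with the width of the window, judged for shares by an exact 95% binomial interval over the steps and for counts by a factor of 1.5. Neighbouring steps of a segment are not independent and the windows are nested, so this interval is only a yardstick for a change and not a test. With 50 kb on each side Myod1 had 100% of its window in type 4, in 1 segment, and Myog 75.6% in type 3. With 250 kb on each side Myod1 had 67.4% and Myog 12 segments. The other 49 such values stayed within these limits. Those 49 include the leading type of every list, but also the body types and overlap settings of the 4 genes, which could not change. Of the other types in the lists, 68 values stayed within the limits, whereas 4 further list counts did not. They came from Eya1, with its middle in type 1 and not in type 2, Ttn and Neb, with their middles in type 1, and Myl1, which left type 5 when 5 kb was added on each side. Counting clustered genes once moved no count beyond the limit. The resolution of 5 kb limits all values, since each of the 4 genes is shorter than 1 step.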

Other observations

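The 3 loci carry related neighbours, which were named after their segments were seen. Of the otogelin genes, Otog lay in the type 4 segment of Myod1 and Otogl in the type 5 segment of Myf5 and Myf6, each with its whole body and 100% of its window in that type. Of the liprin-alpha scaffold genes, Ppfia2 was 100% type 5 beside Myf5 and Myf6 and Ppfia4 was 100% type 3 beside Myog, while Ppfia3 was 53.8% type 4 and Ppfia1 100% type 1 elsewhere on chromosome 7. Of the Lin7 scaffold genes, Lin7a was 100% type 5 beside Myf5, Lin7b 100% type 3 and Lin7c 100% type 1. Of the potassium channel genes, Kcnc1 beside Myod1 was 100% type 4, as was Kcnc4 at another locus, and Kcnc2, on the chromosome of Myf5 but outside its segment, was 43.3% type 5.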
